A study of Mus musculus with 26 samples.

Results

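The genes of the myelin sheath were followed as labelled RNA through a chase in oligodendrocytes (OLs) and in the oligodendrocyte progenitor cells (OPCs) they came from. The list held 9 genes chosen by name for their place in central myelin: Mbp, Cnp, Mag, Mog, Mobp, Cldn11, Mal, Opalin and Ermn. Of the 10104 transcripts listed for either cell type, 8 belonged to these genes. All 8 were listed for OLs, among 9751 transcripts. Mbp and Cnp were also among the 8530 transcripts listed for OPCs. Mag, Mog, Mobp, Cldn11, Mal and Opalin were listed for OLs only, and Ermn was listed for neither cell type. A transcript entered a table only with at least 1 FPKM at 0 h (fragments per kilobase of transcript, scaled to the mapped fragments of a library). A gene missing from the OPC table was therefore low or undetected in at least 1 OPC replicate, and no fold is given for it.

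OPCs of strain 129S/SvEv had been derived from epiblast stem cells and were grown on poly-L-ornithine and laminin with bFGF and PDGFA. To make OLs, such OPCs were first taken through 2 passages in growth medium without bFGF. They were then kept in medium with noggin, IGF-1, cyclic AMP, NT3 and T3 (thyroid hormone) for 40 h before labelling. Both cell types then took up 5-EU, a uridine analogue, for 24 h. Uridine replaced it during a chase of 0, 1, 2, 4 or 6 h, and labelled RNA was pulled down and sequenced in 3 OPC and 2 OL replicates at each time. The cells were cultures without neurons to myelinate, each library came from a dish of its own, and the labels do not say whether replicates were separate derivations, so p-values measure only the spread between these samples. The study calls them biological replicates and matches the OLs to a pair of the OPC replicates, without saying which numbers correspond.

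Myelin is a stack of oligodendrocyte membrane wrapped around axons, and a differentiating oligodendrocyte turns on the genes of its proteins together. Mbp (myelin basic protein) holds the cytoplasmic faces of the membrane together, and its mRNA is carried into the processes and translated there. Mobp is a small basic protein of the same compartment. Cnp is an enzyme of non-compact myelin that keeps cytoplasmic channels open. Cldn11 is the claudin of the tight junctions between myelin layers, and Mal is a proteolipid of membrane rafts and sorting. Mag, on the innermost wrap facing the axon, and Mog, on the outer surface, are immunoglobulin-family membrane proteins. Opalin is a small sialylated membrane glycoprotein of oligodendrocytes, and Ermn binds actin in mature ones.

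The study's interest was in the codons for phenylalanine (Phe, UUU or UUC) and lysine (Lys, AAA or AAG), and the members differed widely in them. Opalin had the highest share of both UUU and AAA and Mobp the lowest share of UUU, and Cnp, an abundant member, is shown with them. Each line gives the first 150 bases of the coding sequence as DNA, 5′ to 3′, with T for U, and capitals mark in-frame Phe and Lys codons.
Opalin (ENSMUST00000087176, GRCm38 chr19:41062473-41077113, minus strand): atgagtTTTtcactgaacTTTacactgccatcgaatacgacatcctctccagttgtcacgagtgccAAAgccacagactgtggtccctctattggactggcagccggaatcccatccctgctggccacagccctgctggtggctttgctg
Mobp (ENSMUST00000068698, GRCm38 chr9:120149707-120169378, plus strand): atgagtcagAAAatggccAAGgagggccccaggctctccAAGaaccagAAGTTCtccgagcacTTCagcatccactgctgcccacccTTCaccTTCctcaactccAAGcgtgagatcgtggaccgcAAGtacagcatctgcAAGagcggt
Cnp (ENSMUST00000103120, GRCm38 chr11:100574904-100581728, plus strand): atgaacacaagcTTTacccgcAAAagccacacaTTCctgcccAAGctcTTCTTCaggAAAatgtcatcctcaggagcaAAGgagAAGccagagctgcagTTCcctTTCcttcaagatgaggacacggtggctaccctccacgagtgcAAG
Over the whole coding sequence, Opalin spelled all 3 of its Phe residues with UUU and 2 of 3 Lys residues with AAA. Of 9686 OL-listed transcripts with both amino acids, 14 (0.145%) used UUU for every Phe and AAA for at least 2 of 3 Lys. These limits are Opalin's own shares, and the transcripts were not matched for their number of Phe and Lys codons. The 0.145% therefore does not measure how unusual Opalin is for a gene with so few of these codons. Mobp spelled 5 of 6 Phe residues with UUC and 18 of 19 Lys residues with AAG. Cnp had 8 UUU and 12 UUC, and 9 AAA and 34 AAG.

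Opalin, the member that kept least of its 0 h level at 6 h, also held the most copies of AUUUA, the core letters of AU-rich elements, among the 7 members with an annotated 3′ untranslated region (3′ UTR). It had 4 in 1330 bases, against 2 in Mal, 1 each in Cldn11, Cnp, Mag and Mobp, and 0 in Mog, while the Mbp model has no 3′ UTR to count in. The same strand of the transcript was searched, as ATTTA with overlaps allowed. At least 1 copy was found in 81.4% of the 1439 OL-listed transcripts with a 3′ UTR within 20% of Opalin's length, and at least 4 copies in 25.6% of them, so neither the letters nor this count is rare. The 4 stretches follow, with ATTTA in capitals and positions counted from 1 at the start of the 3′ UTR.
Opalin 108 to 136: aacatcaatttcATTTAtagatccaagac
Opalin 340 to 368: ccaaatgttatcATTTAaaaaataataaa
Opalin 841 to 869: tgaatttttgacATTTAaaaataactcta
Opalin 1059 to 1087: acctccagaaagATTTAactgagtaagaa
The letters ACUAAY, the core bound by the glial RNA-binding protein quaking, were found 2 times in Mobp, 1 time in Mal and 0 times in Cldn11, Cnp, Mag, Mog and Opalin. Among transcripts with a 3′ UTR of like length, 24.1% held at least 1 copy for Mobp and 42.7% for Mal. For the members with 0 copies this share ran from 14.4% for Mag to 32.7% for Opalin. The share with 2 copies or more, as in Mobp, was not counted.

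At 0 h the members ranged in OLs from the top of the library to its lower part. Mbp had 3213 FPKM in OL replicate 1 and 1295 in replicate 2, where it ranked 1 and 7 among 9751 transcripts. Cnp had 1399 and 748 FPKM and Mag 481 and 247. Cldn11 had 128 and 47.3 FPKM, Mog 79.0 and 31.0, and Mobp 24.4 and 10.8. Opalin, with 11.0 and 3.80 FPKM, and Mal, with 8.23 and 2.68, were the lowest members. Both replicates gave the same order. Taken over the replicates, the ranges of neighbours in this order overlapped for Mbp and Cnp, for Cldn11 and Mog, for Mobp and Opalin and for Opalin and Mal, and did not overlap for Cnp and Mag, Mag and Cldn11, or Mog and Mobp. FPKM is a level per length, and in M21 of GENCODE, a later release than the vM9 behind the FPKM values, the Mbp model of this identifier has 576 bases and no UTR, unlike the other 7. If vM9 holds the same model, reads in Mbp UTRs do not enter its value, which was not tested.

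**Figure D1:**
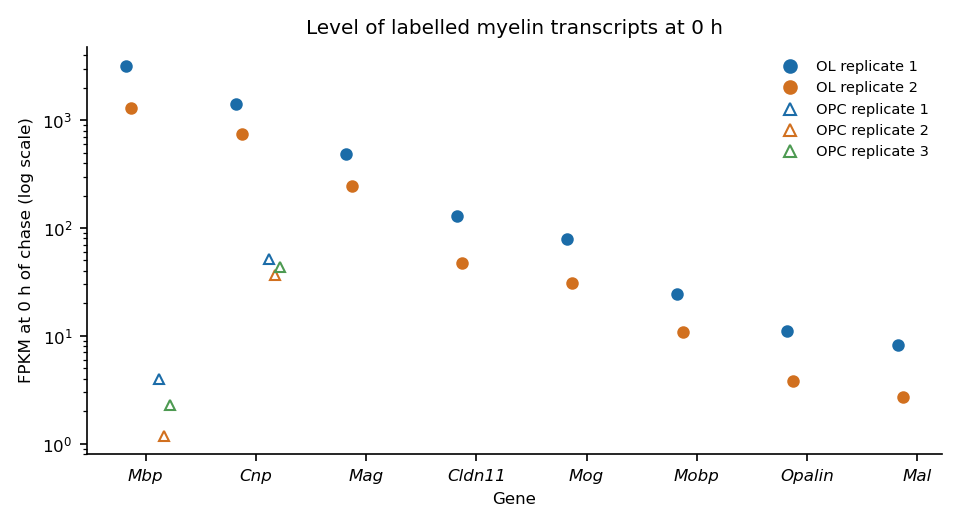
FPKM at 0 h of chase on a log scale for the 8 listed genes, 1 point per library, with OL replicates as filled circles and OPC replicates as open triangles. Mbp lay at 1295 FPKM or more in OLs and at 3.99 or less in OPCs, and OL replicate 1 lay above OL replicate 2 for all 8 genes.

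OL replicate 1 held more of every listed member than OL replicate 2. The ratio at 0 h was lowest for Cnp (1.87) and highest for Mal (3.07), whereas the median ratio over all transcripts was 0.948. Each of the 8 members lay between the 98.1 and 99.7 percentile of all transcripts in this ratio. The ratio stayed above 1 for all 8 at every later time, from 1.13 to 1.92 at 1 h and from 2.40 to 5.18 at 6 h. Markers of committed and premyelinating OLs (8 of 8 listed) summed to 1726 and 1256 FPKM in replicates 1 and 2. The astrocyte list (7 of 8 listed, Aqp4 not listed) summed to 427 and 734 FPKM, with Gja1 at 40.1 and 188 and Gfap at 6.86 and 8.12. In bulk samples, fewer cells of a type and less RNA per cell cannot be told apart, and the part of these marker differences in the values of the members was not tested.

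In OPCs, Mbp was near the lower limit of the table and Cnp was not. Mbp had 3.99, 1.19 and 2.28 FPKM at 0 h in OPC replicates 1, 2 and 3, and Cnp had 51.1, 36.4 and 43.2. Every OL value of both genes lay above every OPC value. On the scale of log2(FPKM + 1), Mbp was higher in OLs by 9.27 ± 0.45 (SE, 2 OL against 3 OPC libraries, limma adjusted p = 5.13e-05) and Cnp by 4.54 ± 0.31 (limma adjusted p = 0.000132). In this comparison 13.8% of the 8177 transcripts listed for both cell types were higher in OLs, so 2 of 2 members stood among 1127 transcripts. The difference for Mbp was exceeded by no other transcript, at the 99.99 percentile, and that for Cnp lay at the 99.8 percentile.

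During the chase the labelled RNA of most transcripts fell, and 7 of the 8 members ended above the median transcript in both OL replicates. The median transcript kept 31.5% of its 0 h level at 6 h in OL replicate 1 and 36.6% in replicate 2. Leaving Opalin aside, the members kept from 87.9% to 204% in replicate 1 and from 79.2% to 189% in replicate 2. These 7 lay at or above the 85.4 percentile of all transcripts in replicate 1 and the 82.6 percentile in replicate 2. As a share of all listed FPKM, the 8 members together went from 1.52% at 0 h to 3.60% at 6 h in replicate 1 and from 0.697% to 1.38% in replicate 2. Mbp was the largest part, going from 3213 to 6543 FPKM in replicate 1, where the sum went from 5344.5 to 9223. In replicate 2 Mbp went from 1295 to 2192 and the sum from 2386 to 3111. There Cnp, Mag, Cldn11, Mobp and Opalin ended below their 0 h level, and Mbp, Mog and Mal above it.

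**Figure D2:**
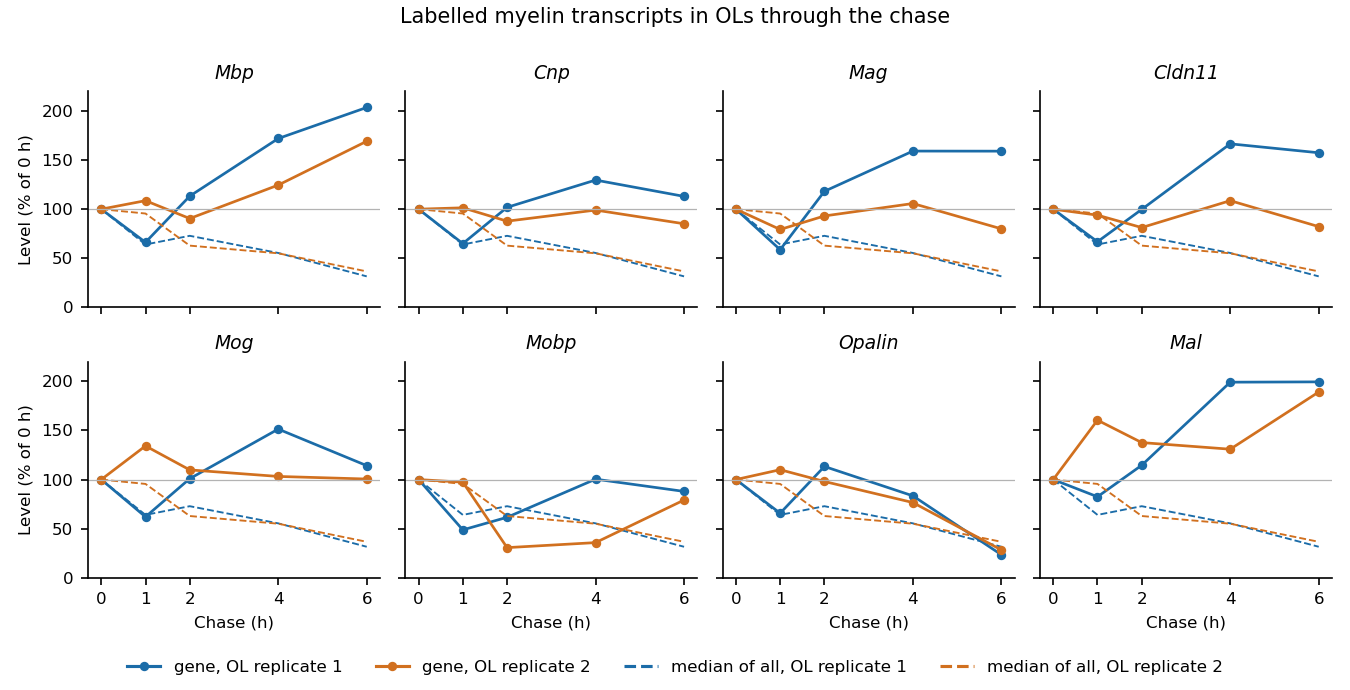
Level of each listed myelin gene in OLs, as a percentage of the 0 h level of the same replicate, against hours of chase. Solid lines give the gene in replicates 1 (blue) and 2 (orange), dashed lines the median of all 9751 transcripts, and the grey line 100%. Mbp and Mal ended between 169% and 204%, and Opalin ended at 23.4% and 28.3%.

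Mbp and Mal, the most and the least abundant member, both rose. Mbp read 3213, 2127, 3640, 5527 and 6543 FPKM at 0, 1, 2, 4 and 6 h in OL replicate 1 and 1295, 1407, 1172, 1613 and 2192 FPKM in replicate 2. It ended at 204% and 169% of its 0 h level. Its slope was 0.18 ± 0.05 log2 units per h (SE, 10 libraries, limma adjusted p = 0.00367). Mal read 8.23, 6.78, 9.43, 16.4 and 16.4 FPKM in replicate 1 and 2.68, 4.30, 3.69, 3.51 and 5.07 FPKM in replicate 2, and it ended at 200% and 189%. Its slope was 0.14 ± 0.05 (limma adjusted p = 0.0136). A rise at an adjusted p under 0.05 was called for 1.50% of the 9751 OL transcripts, and for 2 of the 8 members. Over all OL transcripts the count of rises was 146, against 12 without OL replicate 1, 50 without the 6 h libraries and 76 with no replicate block.

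For Mbp and Mal the direction was the same in each OL replicate, but replicate 1 gave the larger slope. Mbp had a slope of 0.23 log2 units per h in replicate 1 and 0.13 in replicate 2, and Mal 0.20 and 0.08. Without replicate 1 the limma adjusted p was 0.074 for Mbp and 0.25 for Mal. Without the 6 h libraries it was 0.11 and 0.123, and in a fit with no replicate block it was 0.106 and 0.182.

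Opalin was the member that fell. It read 11.0, 7.23, 12.5, 9.18 and 2.57 FPKM in OL replicate 1 and 3.80, 4.18, 3.72, 2.91 and 1.07 FPKM in replicate 2. The fall came late, since at 4 h it still held 83.4% and 76.6% of its 0 h level, and at 6 h 23.4% and 28.3%. From 4 to 6 h it kept 28.0% and 36.9%, against a median of 62.6% and 69.8% over all transcripts, which put it at the 9.28 and 8.33 percentile of that step. Its slope was -0.22 ± 0.06 log2 units per h (limma adjusted p = 0.00263), near the median slope of -0.20 over all transcripts. A fall was called for 68.4% of OL transcripts, and for 1 of the 8 members. Without the 6 h libraries the slope of Opalin was -0.05 (limma adjusted p = 0.621).

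Cnp, Mag, Cldn11 and Mog had slopes that did not pass the test and that differed in sign between the OL replicates. Cnp read 1399, 909, 1425, 1814 and 1582 FPKM in replicate 1 and 748, 759, 657, 741 and 637 in replicate 2, with a slope of 0.03 ± 0.05 (limma adjusted p = 0.584). Mag read 481, 283, 569, 766 and 766 FPKM and 247, 196, 230, 261 and 197 FPKM, with a slope of 0.08 ± 0.06 (limma adjusted p = 0.188). Both genes thus ended above 0 h in replicate 1, at 113% and 159%, and below it in replicate 2, at 85.1% and 79.9%. Cldn11 read 128, 85.5, 128, 213 and 202 FPKM in replicate 1 and 47.3, 44.4, 38.4, 51.4 and 38.9 in replicate 2, with a slope of 0.08 ± 0.05 (limma adjusted p = 0.187). Mog read 79.0, 49.0, 79.7, 120 and 90.2 FPKM and 31.0, 41.7, 34.1, 32.0 and 31.2 FPKM, with a slope of 0.04 ± 0.05 (limma adjusted p = 0.49). Mog ended close to its start in both, at 114% and 101%. All 4 had positive slopes in replicate 1, from 0.09 to 0.19, and negative ones in replicate 2, from -0.03 to -0.02.

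Mobp, which encodes the small basic protein, read lowest at 1 h in OL replicate 1 and at 2 h in replicate 2. It read 24.4, 11.9, 15, 24.5 and 21.4 FPKM in OL replicate 1 and 10.8, 10.6, 3.32, 3.88 and 8.58 FPKM in replicate 2. In replicate 2 it lay at 30.6% and 35.7% of its 0 h level at 2 and 4 h and was back at 79.2% at 6 h. The slope was -0.01 ± 0.07 (limma adjusted p = 0.894), with 0.06 in replicate 1 and -0.08 in replicate 2. It was the member with the lowest Lys AAA share but for Mal, and with the lowest Phe UUU share of all 8.

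**Figure D3:**
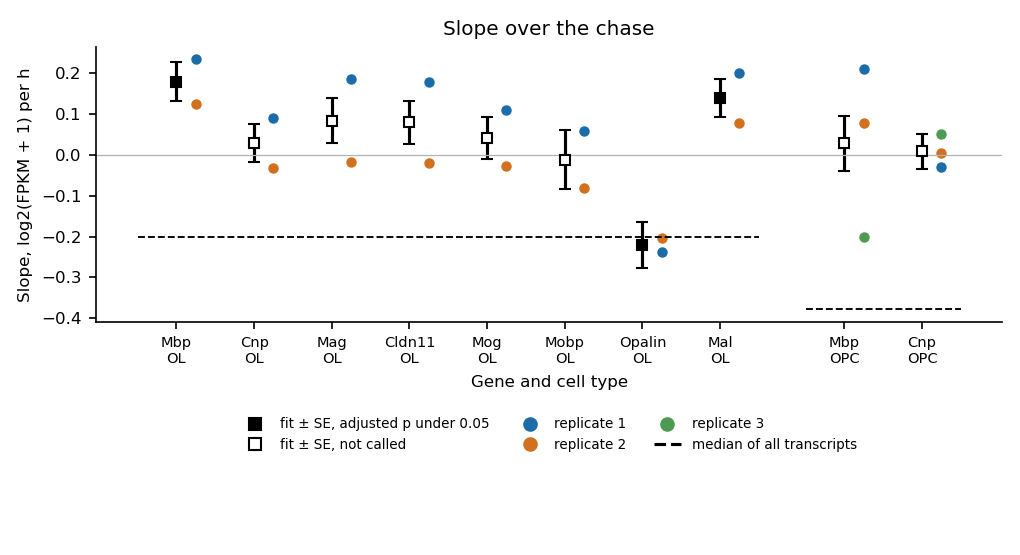
Slope of log2(FPKM + 1) per hour of chase for the 8 genes in OLs and for Mbp and Cnp in OPCs. Squares with bars give the fit over replicates with its SE, filled where the adjusted p was under 0.05, coloured points give each replicate, and dashed lines give the median of all transcripts. Mbp (0.18) and Mal (0.14) lay above 0 and Opalin (-0.22) below it in both OL replicates, and the other 5 genes had replicates on either side of 0.

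At 1 h the members differed between the OL replicates, as did the median transcript. In OL replicate 1 all 8 members lay below their 0 h level at 1 h, between 48.7% and 82.5%, where the median transcript was at 64.0%. In replicate 2 they lay between 79.3% and 161%, where the median transcript was at 95.5%. Relative to the median transcript of each library, slopes of 7 of the 8 OL members were above 0 at a limma adjusted p under 0.05, from 0.22 for Mobp to 0.41 for Mbp. The slope of Opalin was then 0.01 (limma adjusted p = 0.834). On this scale, which takes out the fall shared by all transcripts and moved the median OL slope from -0.20 to 0.03, 31.2% of OL transcripts were called higher, with 3046 called higher and 1345 lower, against 146 and 6668 on the spike-in scale.

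**Figure D4:**
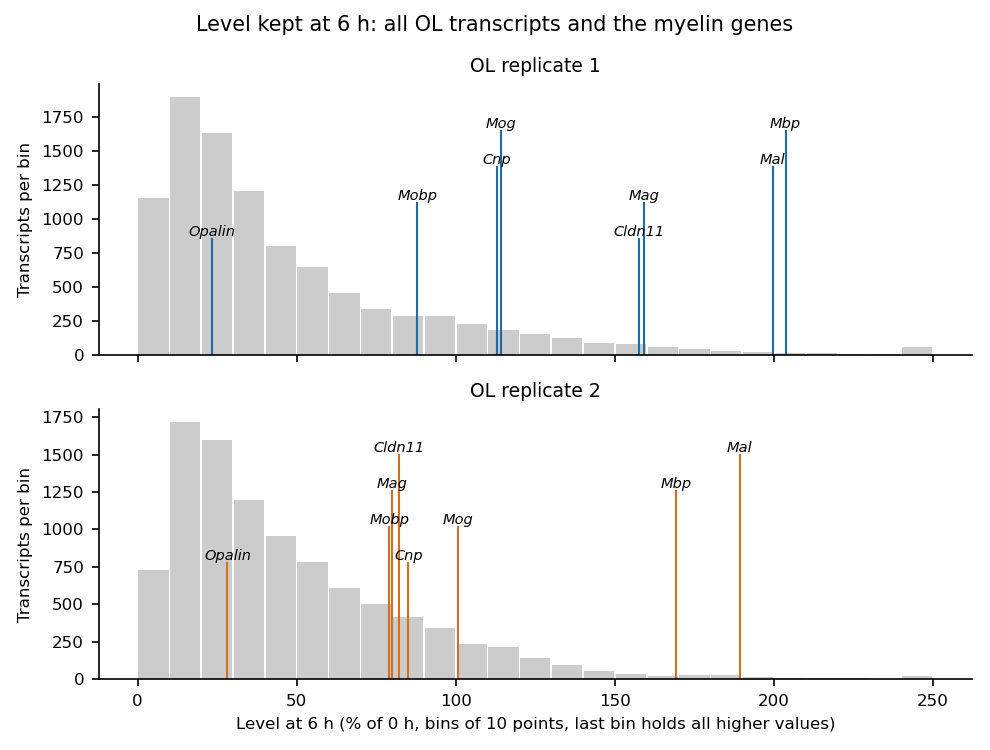
Histograms of the level at 6 h as a percentage of the 0 h level for all 9751 OL transcripts, in bins of 10 points, for replicate 1 (top) and replicate 2 (bottom), with the listed myelin genes as labelled lines. The medians were 31.5% and 36.6%. Opalin lay below them in both, and the other 7 genes lay above them, at 79.2% or more.

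Mbp, Mal and Mog were above their 0 h level at 6 h in both OL replicates. That is 3 of 8 members, where 5.18% of all OL transcripts met the same description. The half-lives in the deposited tables came from an exponential decay and were set to a ceiling of 6 h. All 8 members were at this ceiling in OL replicate 1 and 7 in OL replicate 2, where Mobp had 2.70 h. At the ceiling in both OL replicates were 7 of 8 members and 28.9% of all OL transcripts with a half-life. Opalin was among them although it ended under 30% of its start in each replicate, which was so for 5 of the 2798 transcripts at the ceiling. For this gene a half-life of 6 h or more and the level measured at 6 h thus differ.

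In OPCs neither Cnp nor Mbp had a slope that passed the test, and the replicates of Mbp scattered widely. Cnp read 51.1, 38.4, 28.7, 50.9 and 35.0 FPKM in OPC replicate 1, 36.4, 31.8, 37.6, 39.5 and 33.9 in replicate 2, and 43.2, 25.4, 28.0, 40.4 and 41.2 in replicate 3. It kept 68.6%, 93.0% and 95.2% at 6 h, where the median transcript kept 14.4%, 11.0% and 17.7%. Its slope was 0.01 ± 0.04 log2 units per h (limma adjusted p = 0.853). Mbp read 3.99, 3.96, 3.43, 3.43 and 12.8 FPKM in OPC replicate 1, 1.19, 0.938, 0.430, 1.23 and 1.75 in replicate 2, and 2.28, 0.258, 1.01, 0.577 and 0 in replicate 3. The replicates thus ended at 321%, 148% and 0% of the start, and the slope was 0.03 ± 0.07 (limma adjusted p = 0.692). A fall was called for 81.7% of OPC transcripts and for 0 of these 2, of which 0 also had an unadjusted limma p under 0.05. Relative to the median transcript both were called higher (limma adjusted p = 3.5e-05 for Mbp and 2.29e-07 for Cnp), as were 39.8% of OPC transcripts, with 3392 called higher and 1186 lower on that scale.

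No difference between cell types in the course of Mbp or Cnp passed the test. The OL slope exceeded the OPC slope by 0.15 ± 0.09 log2 units per h for Mbp (limma adjusted p = 0.215) and by 0.02 ± 0.06 for Cnp (limma adjusted p = 0.821). A shallower fall in OLs was called for 32.1% of the 8177 shared transcripts, and the median difference was 0.14. Without OPC replicate 1, which held the 12.8 FPKM value, the difference for Mbp was 0.24 (limma adjusted p = 0.0405), and without OPC replicate 3, which ended at 0, it was 0.04 (limma adjusted p = 0.769). Without OL replicate 1 it was 0.10 (limma adjusted p = 0.616). Relative to the median transcript the difference for Cnp was -0.19 (limma adjusted p = 0.031) and that for Mbp -0.06 (limma adjusted p = 0.701), and over all transcripts 341 were then called higher and 1837 lower, against 2623 and 32.

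Half-lives gave no call for either gene. Mbp had 6, 6 and 1.69 h in OPC replicates 1, 2 and 3 and 6 h in both OL replicates, a difference of 0.61 ± 0.73 on the log2 scale (limma adjusted p = 0.721). Every replicate but OPC replicate 3 was at the ceiling, so the difference rests on that replicate. A change beyond 6 h could not show. The difference for Mbp was 1.41 with half-lives refitted by least absolute deviations and 1.40 with the libraries scaled to 1 mean decay curve. It was 0 without OPC replicate 3 or with a replicate block, and none of these passed the test. Cnp was at the 6 h ceiling in all 5 replicates, so no difference could be measured. A longer half-life in OLs was called for 3.39% of the 8112 transcripts tested, with 275 longer and 12 shorter. With the libraries scaled to 1 mean decay curve the split was 89 longer and 254 shorter. With a replicate block limma called 0 transcripts, and 1554 had an unadjusted p under 0.05.

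Among themselves the members shared neither codon choice nor length. The UUU share of Phe codons was 100% in Opalin, 64.3% in Mal, 50% in Cldn11, 45.5% in Mbp, 40% in Cnp, 26.7% in Mog, 22.7% in Mag and 16.7% in Mobp, around a median of 44.4% over OL-listed transcripts. The AAA share of Lys codons was 66.7% in Opalin, 57.1% in Mog, 40% in Cldn11, 30.8% in Mag, 20.9% in Cnp, 15.4% in Mbp, 5.26% in Mobp and 0% in Mal, around a median of 37.5%. Opalin was thus highest in both shares, at the 99.4 and 96.2 percentile. Several shares rest on few codons, such as 3 Phe and 3 Lys in Opalin and 2 Lys in Mal. The share of G or C at the third codon position was lowest in Opalin (49.7%) and highest in Mobp (75.9%), with a median of 60.6%. Coding sequences ran from 429 bases in Opalin to 1746 in Mag, and 7 of the 8 were shorter than the median of 1395 bases.

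**Figure D5:**
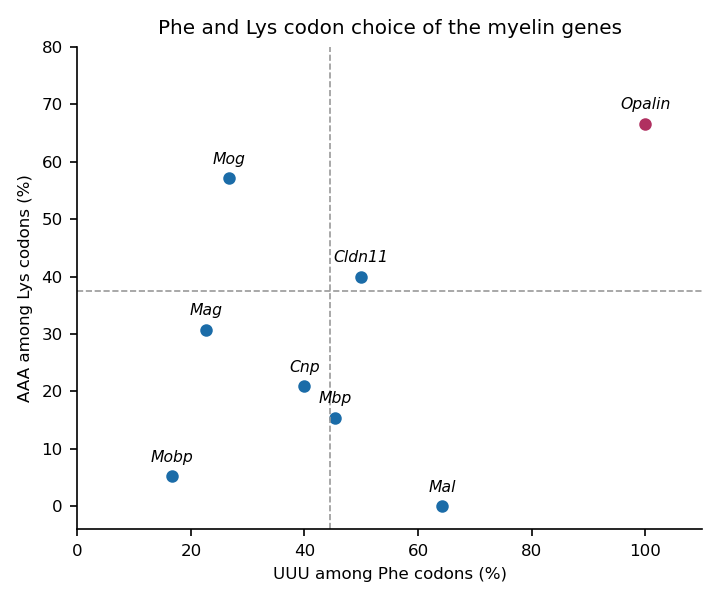
Share of UUU among Phe codons against share of AAA among Lys codons, in percent, for the coding sequences of the 8 listed genes, with dashed lines at the medians over OL-listed transcripts (44.4% and 37.5%). Opalin lies alone at 100% and 66.7%.

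The Mbp model lies at GRCm38 chr18:82554580-82584156 on the plus strand and has 6 exons. The other members were Mag at chr7:30899183-30914327 (minus strand, 12 exons), Cldn11 at chr3:31149920-31164324 (plus, 3 exons), Mog at chr17:37010743-37023398 (minus, 8 exons) and Mal at chr2:127633226-127656695 (minus, 4 exons), each a canonical coding transcript. No pair lay on the same chromosome.

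Genes that act beside the members were counted in 4 lists. Over all transcripts tested, 13.8% were higher and 15.8% lower in OLs at 0 h, and in the OL chase 1.50% rose and 68.4% fell. Of 41 other myelin membrane, junction and adhesion genes, 35 were listed, and 22 of them for both cell types. Of these 22, 13 (59.1%) were higher in OLs at 0 h, 2 (9.09%) were lower and 7 were not called, with a median of 1.51 log2 units against -0.01 over all transcripts. Bcas1, a marker of early myelinating cells, was higher by 5.48 ± 0.30, and Gjc3, an oligodendrocyte connexin, by 5.05 ± 0.35. Adgrg1, an adhesion receptor of progenitors, was lower, at -1.34 ± 0.23, as was Tmem63a at -0.87 ± 0.25. During the OL chase 6 of the 35 rose (17.1%) and 17 fell (48.6%).

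Of 30 cytoskeleton and transport genes, 25 were listed and 22 tested at 0 h, of which 9 (40.9%) were higher in OLs and 2 (9.09%) lower, with a median of 0.49. Sirt2, a deacetylase of tubulin found in myelin, was higher by 4.63 ± 0.38, and Tppp, which bundles microtubules in oligodendrocytes, by 4.58 ± 0.29. In the OL chase Sirt2 ended at 206% and 191% and Tppp at 15.3% and 11.1%. The lower ones were Anln, a protein of the dividing cell's furrow, at -2.49 ± 0.41, and the actin regulator Limk1 at -1.90 ± 0.30. In this list 1 of 25 genes rose in OLs (4%) and 12 fell (48%).

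Of 33 factors that act on myelin genes or on their mRNAs, 30 were listed and 26 tested at 0 h, of which 7 (26.9%) were higher and 3 (11.5%) lower, with a median of 0.37. Sox10, a driver of myelin gene transcription, was higher by 3.07 ± 0.58 and Zeb2, another transcription factor of differentiation, by 2.58 ± 0.38. Olig1 was lower at -0.88 ± 0.22 and Hnrnpf at -0.69 ± 0.22. In the OL chase 0 of the 30 rose by limma (0 at an unadjusted p under 0.05) and 27 fell (90%). At 6 h Sox10 held 21.4% and 9.84% of its 0 h level in OLs, Zeb2 11.8% and 12.9%, Olig1 38.3% and 31.2% and Hnrnpf 39.8% and 66.8%.

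Of 31 enzymes of myelin lipids and their regulators, 30 were listed and 27 tested at 0 h, with 6 higher (22.2%), 3 lower (11.1%) and a median of 0.14. Ugt8a, which makes galactosylceramide, was higher by 5.97 ± 0.29 and the fatty acid elongase Elovl1 by 1.14 ± 0.24. Acsbg1, an acyl-CoA synthetase, was lower at -1.16 ± 0.25 and Srebf1, a lipogenic transcription factor, at -1.07 ± 0.29. In the OL chase 1 of the 30 rose (3.33%) and 17 fell (56.7%), where the median slope over the list was -0.19 against -0.20 over all transcripts and 0.06 over the 8 members.

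The cell type labels were read against marker lists. The progenitor list (10 of 10 listed) summed to 1724 to 1883 FPKM in OPCs and to 1337 and 1149 FPKM in OLs, with 4 genes higher and 4 lower in OLs. Olig1 was the largest part of the sum, at 1009 to 1079 FPKM in OPCs and 635 and 506 in OLs. Olig2 followed, at 316 to 332 FPKM in OPCs and 218 and 190 in OLs. The lower sum in OLs thus mostly follows these genes and is not shared by the whole list. Pdgfra was among the 4 higher genes, at 66.9 and 43.9 FPKM in OLs against 11.5 to 26.5 in OPCs. Over the 5 committed and premyelinating genes listed for both cell types the sum was 158 to 174 FPKM in OPCs and 1414 and 1054 in OLs, with 5 of 5 higher, while Enpp6, Myrf and Itpr2 were listed for OLs only. Myelin genes of mature cells were thus present beside markers of earlier stages, and Ermn was not listed. Over the 5 astrocyte genes listed for both, the sum was 464 to 579 FPKM in OPCs and 418 and 723 in OLs, with 1 of 5 higher, Slc1a2. Of the neuronal list 4 of 8 genes were listed (Dcx, Map2, Syt1 and Tubb3), and the 3 listed for both, all but Syt1, summed to 83.3 to 189 FPKM in OPCs and to 212 and 198 in OLs. Of the Schwann cell list only Pmp22 was listed, at 20.7 to 41.4 FPKM in all 5 libraries, and the microglial and pluripotency lists had 0 of 6 and 0 of 5 genes listed.

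The transcripts whose course was most like the members' were named by Pearson's correlation, as a description without a test. Over all 25 libraries, the mean of Mbp and Cnp was followed most closely by Tubb4a (r = 0.990), Parvb (0.989), S100b (0.987), Sirt2 (0.986) and Chadl (0.982). These libraries span both cell types, so r includes the difference between them. Over the 10 OL libraries, the mean of the 8 members was followed by Ddc (0.989), Fkbp9 (0.988), Reep5 (0.987), Parvb (0.986) and Tmem163 (0.983). The libraries of a replicate share its scale, and replicate 1 was higher for all 8 members. For the members, r with the mean of the 8 ran from 0.874 for Mobp to 0.993 for Cnp, except for Opalin at 0.636. Each member is part of that mean, which raises its r, so these values do not compare with those of other genes.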

How the data were processed

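Labelled RNA of 25 libraries was used, 15 of OPCs and 10 of OLs. The OPC control without biotin was not analysed here, so background on the beads was not subtracted. The authors clipped adapters, aligned reads to GRCm38 with HISAT2 (version 2.1.0) and tabulated FPKM with StringTie (version 1.3.5) over canonical coding transcripts. Per the study's methods, the authors normalised FPKM of every time to 5-EU-labelled spike-in RNA. The digits of the 0 h columns differ from those of later ones, with 6 decimals in 89.8% to 90.3% of values against 15.9% or less, so whether 0 h was scaled too is not settled here, and a scale error moves all transcripts of a library together. A transcript had to reach 1 FPKM at 0 h to be kept, and those with 0 FPKM at 1 and 2 h were removed. The deposited half-lives in hours, a unit of their own, are from a least absolute deviations fit for each replicate, with a ceiling of 6 h. FPKM does not give counts, and sequencing depth is unknown. Sums of FPKM over listed transcripts at 0 h ran from 342224 to 432287.

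The tests here used limma 3.58.1 (R 4.3.3) on log2(FPKM + 1), or on log2 half-life, fitted over all transcripts and adjusted by Benjamini-Hochberg over all of them at 0.05, in 5 comparisons. They were level at 0 h, half-life, slope in OLs, slope in OPCs and the difference in slope. Fold changes on the log2(FPKM + 1) scale understate changes of low genes. Slopes had an intercept for each replicate series, so that a scale shared by the libraries of a replicate cancels. Deviations of libraries of the same OL replicate correlated at 0.206 to 0.540, and those of the same OPC replicate at -0.0666 to 0.551. The scripts were tested on simulated data. Percentiles place a gene among all transcripts of the same library. Alternatives were another pseudocount (0.1), a minimum mean of 5 FPKM, centring, refitted half-lives, other blocking and leaving out libraries.

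Coordinates, coding sequences and 3′ UTRs came from the GENCODE M21 annotation of GRCm38, in which all 10104 transcripts were matched by identifier. Members were taken by gene symbol. The members, lists and tests were chosen with earlier results of these data known. Named beside the 9 members were the 2 highest and 2 lowest genes by 0 h difference of each list, and the 5 genes most like the members by Pearson's r in each set of libraries. Gja1, Gfap, Pdgfra and the other marker genes were named after their values were seen.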

Additional observations from a re-analysis of the deposited data

How the results depend on the processing

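The 0 h calls for Mbp and Cnp held under all 9 alternatives, with differences of 8.62 to 9.93 and 4.08 to 4.99. The slopes were less settled, and the cause was not tested. In OLs, 3 of 8 members were called, Mbp and Mal rising and Opalin falling, where 6814 of 9751 transcripts were called. With libraries centred on their median 7 members were called, all higher, where 4391 transcripts were. With no replicate block only the fall of Opalin was called (6389 transcripts), and without the 6 h libraries 0 members (4606 transcripts). When a replicate was left out it was 1 to 3 members (5073 to 5664 transcripts). Centring reversed the sign for Mobp (0.22) and Opalin (0.0150). With an OL replicate left out the slope ran from -0.0313 to 0.0907 for Cnp, from -0.0166 to 0.185 for Mag, from -0.0197 to 0.179 for Cldn11 and from -0.0282 to 0.110 for Mog, each negative without replicate 1, and from -0.0819 to 0.0589 for Mobp, positive without replicate 2. In OPCs 0 of 2 members were called, where 7334 of 8530 transcripts were, against 2 members and 4578 transcripts after centring. The sign of Mbp there reversed with a pseudocount of 0.1 (-0.0640) and without the 6 h libraries (-0.0725). With an OPC replicate left out it ran from -0.0616, without replicate 1, to 0.144, and that of Cnp from -0.0127, without replicate 3, to 0.0277. For the difference in slope 0 of 2 members were called, where 2655 of 8177 transcripts were. After centring it was 1 member and 2178 transcripts, with both signs reversed (-0.0610 for Mbp and -0.19 for Cnp). When a replicate was left out 0 to 1 members were called for this difference. That of Cnp then ran from -0.0400, without OL replicate 1, to 0.0820. The half-life difference of Mbp reversed with replicates centred on their median (-0.29). For half-life 0 members were called under any alternative, but the 6 h ceiling left little for these tests to measure.

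Over all transcripts, calls went from 6814 to 4391 in OLs and from 7334 to 4578 in OPCs after centring. Slope differences went from 2655 to 1622 without the 6 h libraries and to 746 to 2722 with a replicate left out. Calls at 0 h went from 2421 to 896 to 2605 with a replicate left out, fewest without OL replicate 1. Half-life calls went from 287 to 32 without the 6 h libraries, 1 after centring, 0 with a replicate block (1554 at an unadjusted p under 0.05) and 167 to 236 with a replicate left out. The OLs match a pair of the OPC replicates by origin, but no source used here ties them by number. Same-numbered libraries at 0 h correlated at 0.0589 and 0.0102 in their deviations, and with a replicate block Mbp differed at 0 h by 9.27 and Cnp by 4.54. Sequencing depth is unknown, and values are least firm for Mbp in OPCs, which 1 library lists at 0.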
